A study of Mus musculus with 42 samples.

Results

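The genes described here are 34 targets and controllers of the tumour suppressor p53, followed through the first days after birth in mouse lung, in air and in hyperoxia, with and without the transcription factor Nrf2. Each gene was represented by the probe set that carried its symbol alone and had the highest mean over all arrays. Of the 34 listed genes, 31 were measured in this way, among 18194 genes on the array. Trp53, which encodes p53, and its targets Gdf15 and Bax are not analysed here, because no probe set carried their symbol alone. The measured members comprised 3 controllers of p53, 6 genes of growth arrest, 11 of cell death, 6 of DNA repair and nucleotide supply and 5 of metabolism, signalling and other roles.

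p53 is a transcription factor that DNA damage and other stresses stabilise. It binds paired copies of a short element near its target genes and activates genes that stop the cell cycle, drive apoptosis, repair DNA or adjust metabolism. One of its targets is Mdm2, the ubiquitin ligase that marks p53 for destruction, so that Mdm2 transcript is a common readout of p53 activity. High oxygen damages DNA in lung cells and is a long-used model of injury to the immature lung. Nrf2, encoded by Nfe2l2, is the transcription factor that turns on antioxidant and detoxifying genes under oxidative stress.

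The study compared wild-type (Nrf+/+) newborn mice with Nrf2 knockout (Nrf -/-) newborns, in 14 groups of 3 animals with 1 array per animal. Air-breathing groups of each genotype were taken at P1, P2, P3 and P4, which correspond to days 0, 1, 2 and 3 of age. Hyperoxia groups of each genotype breathed 100 percent oxygen (at least 95 percent) for 23 h per day with foster dams, and were taken at P2, P3 and P4 after 1, 2 and 3 d. The labels name no tissue restriction of the deletion, RNA came from whole-lung homogenate, and neither the strain nor the sex of the animals is given in the labels used here. In such tissue, fewer cells of a type and less RNA per cell cannot be told apart.

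The labels were checked before the members were read. Nfe2l2 lay at 10.32 to 11.56 log2 units in the 21 wild-type arrays and at 4.26 to 5.46 in the 21 knockout arrays, a range that reaches down to the dimmest probe sets, since the 10th percentile of an array lay at 4.22 to 4.35. The lung markers Sftpc (14.52 to 14.77), Ager (13.96 to 14.68) and Pecam1 (10.83 to 11.88) were high in every array. Within groups, arrays correlated at 0.959 to 0.997, and 34 of 42 arrays were closest to an array of their own group. Some samples held RNA of neighbouring tissues: scores of liver, heart, skeletal muscle or thymocyte markers passed 2 log2 units in 17 arrays, of which 13 were wild type. No array of the wild-type air groups at P1 and P2 was below that limit, so the 1 d hyperoxia effect in wild type, its difference between the genotypes, the mean genotype difference in air and the wild-type changes with age and from 1 to 2 d cannot be given without such arrays.

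Exact matches to the p53 element were sought near the starts of genes that the results turn on. RefSeq promoter windows (GRCm38.p6, 250 bases before and 50 after each transcript start) were searched for the p53 response element decamer half-site. This palindromic motif reads the same on both strands. No mismatch was allowed, and sequence outside the windows was not searched. The half-site occurred in 8.36% of all 32851 windows and in 9.55% of the 27025 genes with a window. Of the 31 measured members, 22 had a window, and 8 of these held a half-site: Mdm2, Ccng1, Gadd45a, Aen, Ei24, Polk, Ddit4l and Sesn1. Paired half-sites at most 13 bases apart were found in 24 windows of 20 genes and in no member's window. The stretches below run 5′ to 3′ on the strand that reads like the transcript, with the half-site in capitals. They are shown because they belong to members that rose at different days (Mdm2, Ccng1, Gadd45a, Polk, Ddit4l), to one that fell (Sesn1), and to Cdkn1a, the cell-cycle inhibitor p21, which is not a member. A match is a description of the letters and not evidence of binding.
Mdm2, chr10:117710910-117710969, minus strand, first base of the half-site 186 bases before the start: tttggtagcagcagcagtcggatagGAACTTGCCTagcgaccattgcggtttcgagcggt
Ccng1, chr11:40755437-40755496, minus strand, 185 before: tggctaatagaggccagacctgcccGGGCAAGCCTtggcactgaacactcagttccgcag
Gadd45a, chr6:67037413-67037472, minus strand, 40 before: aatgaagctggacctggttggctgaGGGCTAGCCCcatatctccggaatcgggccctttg
Polk, chr13:96519384-96519437, minus strand, 231 before: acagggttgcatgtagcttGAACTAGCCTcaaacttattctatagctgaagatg
Ddit4l, chr3:137623557-137623616, plus strand, 90 before: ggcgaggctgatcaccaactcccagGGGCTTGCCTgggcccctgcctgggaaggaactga
Sesn1, chr10:41887241-41887300, plus strand, 173 before: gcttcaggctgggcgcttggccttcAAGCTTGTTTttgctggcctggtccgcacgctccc
Cdkn1a, chr17:29090881-29090962, plus strand, 73 and 51 before: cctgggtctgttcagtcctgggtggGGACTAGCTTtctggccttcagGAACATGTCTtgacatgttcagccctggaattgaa
The 6 members shown each have a single exact half-site in these stretches, whereas the Cdkn1a stretch holds 2 exact matches with 12 bases between them. The 10 bases right after the second match, tgacatgttc, depart from the motif in their first base alone and were not counted. Zmat3, Pmaip1, Tnfrsf10b, Perp, Trp53inp1, Xpc, Ddb2, Rev3l and Rrm2b had no window.

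The first comparison asked which members changed in hyperoxia against air at the same age. Members rose in growing numbers over the 3 d in both genotypes. In wild type 8 of 31 were called higher at 1 d (2.64% of all genes were), 16 at 2 d (2.89%) and 19 at 3 d (15%). In the knockout the numbers were 11 (5.73%), 17 (8.87%) and 20 (17%). The calls come from limma fitted on all genes and 42 arrays, at a Benjamini-Hochberg adjusted p under 0.05. Members called lower numbered 3 at 1 d and 2 at 3 d in wild type (1.69% and 12.5% of all genes), and 3 and 4 in the knockout (3.33% and 14.7%). At 2 d the number was 0 in both, when 2.51% of all genes were called lower in wild type and 3.7% in the knockout. Counting both directions, 21 members of each genotype had an unadjusted p under 0.05 at 2 d (3285 of all 18194 genes in wild type and 4510 in the knockout). The median log2 effect over the 31 members was 0.16, 0.52 and 0.77 at 1, 2 and 3 d in wild type and 0.19, 0.39 and 0.75 in the knockout, whereas the median over all genes stayed between -0.03 and 0.04. The effects of each genotype and time rest on their own air controls. The 1 d counts depended on single arrays: the wild-type count was 4 without the second hyperoxia array, and the knockout count was 6 without the first air or the first hyperoxia array and 7 without the third of either. Fitted on the arrays of each comparison alone, both 1 d counts were 0, and with other-tissue scores as covariates the knockout count was 1.

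By role, the arrest and death genes held most of the calls. Of 6 arrest genes, 3, 3 and 5 rose at 1, 2 and 3 d in wild type and 3, 4 and 5 in the knockout. Of 11 death genes, 4, 8 and 9 rose in wild type and 5, 9 and 10 in the knockout. Of 6 repair genes, 2 had risen at 3 d in each genotype, with a median effect of -0.10 in wild type and -0.14 in the knockout. Of the 5 metabolic and other genes, 2 had risen at 3 d in each genotype, with medians of 0.03 and 0.05. Members of a role are not replicates, and no test was made of the difference between roles.

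**Figure D1:**
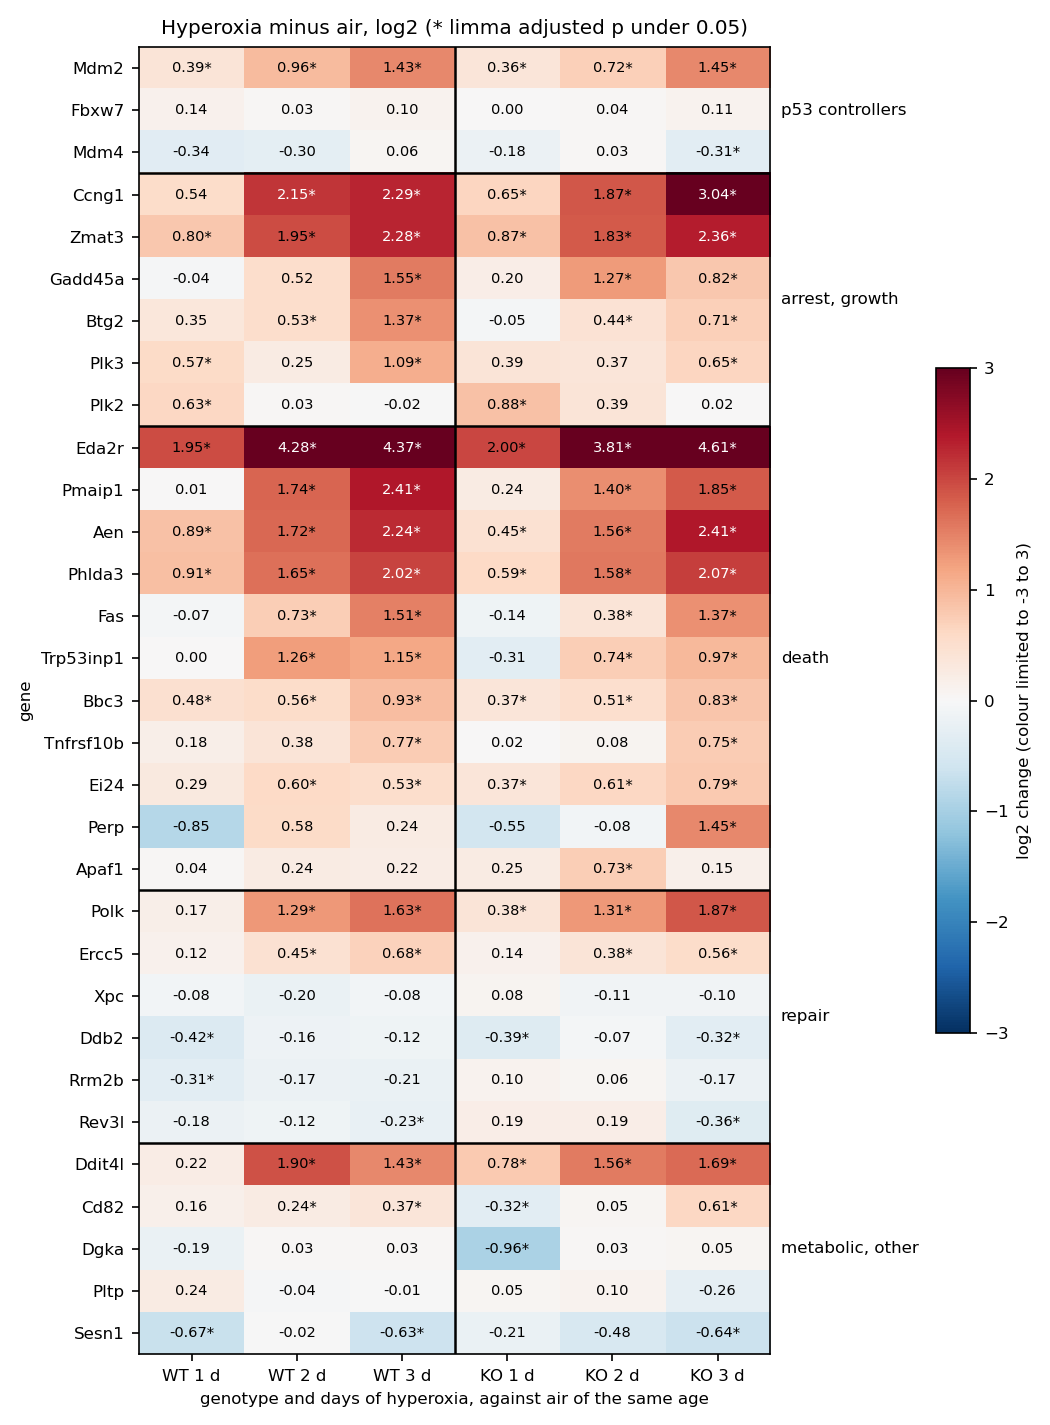
Heat map of the log2 difference between hyperoxia and air at the same age for the 31 measured members (rows, grouped by role) in wild type and knockout at 1, 2 and 3 d (columns), with the colour limited to -3 to 3 and an asterisk where limma's adjusted p was under 0.05. The asterisks grow from 11 to 21 from 1 to 3 d in wild type and from 14 to 24 in the knockout, counting both directions.

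Among the controllers, Mdm2 rose at every time point. At P4 in wild type its values were 9.57, 9.62 and 9.48 in air and 10.74, 11.09 and 11.12 after 3 d of hyperoxia. In the knockout they were 9.78, 9.70 and 9.77 in air and 10.99, 11.31 and 11.29 in hyperoxia. The groups did not overlap, and the effects of 1.43 ± 0.09 (SE, n = 3 against 3) and 1.45 ± 0.09 log2 correspond to 2.70-fold and 2.72-fold (limma adjusted p 6.23e-14 and 7.55e-14). At 1 d the wild-type hyperoxia arrays, at 9.96, 10.08 and 10.04, already lay above all 3 air arrays of that age (9.63, 9.5 and 9.79), an effect of 0.39 in wild type and 0.36 in the knockout. The rise then continued, to 0.96 and 0.72 at 2 d. Another Mdm2 probe set gave 1.53 and 1.64 at 3 d, and a dim one with a mean of 4.75 gave 0.17 and 0.07 and was not called. Mdm4, a relative of Mdm2 that binds and restrains p53, had an effect of 0.06 in wild type at 3 d (adjusted p 0.737) and fell by 0.31 ± 0.11 in the knockout (limma adjusted p 0.0354). That call was lost when any of 5 of the 6 arrays was left out. Fbxw7, the substrate receptor of a ubiquitin ligase, stayed between 8.36 and 8.92 in all arrays and was called in none of the 6 comparisons.

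Ccng1 (cyclin G1, a partner of protein phosphatase 2A) had, with Zmat3, the largest 3 d effects of the arrest genes. At P4 the wild-type values were 9.76, 9.91 and 10.34 in air and 12.23, 12.43 and 12.22 in hyperoxia. In the knockout they were 9.49, 9.33 and 9.70 against 12.46, 12.67 and 12.50. Hyperoxia arrays were above all air arrays in both genotypes, by 2.29 ± 0.18 in wild type (4.89-fold, limma adjusted p 1.02e-11) and 3.04 ± 0.18 in the knockout (8.21-fold, 2.53e-14). Most of the wild-type rise came between 1 d and 2 d: the hyperoxia arrays read 10.84, 10.91 and 10.36 at 1 d and 11.83, 12.00 and 12.11 at 2 d.

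Zmat3, a zinc-finger protein that binds RNA, rose from 1 d on. At P4 its arrays were 8.24, 8.35 and 8.33 in wild-type air and 10.49, 10.77 and 10.51 in hyperoxia, with 8.19, 7.94 and 8.20 against 10.35, 10.45 and 10.63 in the knockout. Its effects were 0.80, 1.95 and 2.28 at 1, 2 and 3 d in wild type and 0.87, 1.83 and 2.36 in the knockout, all ± 0.12. The 3 d effects are 4.87-fold and 5.15-fold (limma adjusted p 5.61e-15 and 2.82e-15), and the groups did not overlap at any of the times.

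Gadd45a, a stress sensor that binds PCNA and activates stress kinases, was called at 3 d in wild type and from 2 d in the knockout. In wild-type hyperoxia its arrays read 7.92, 7.90 and 7.97 at 1 d, 8.06, 8.62 and 8.61 at 2 d and 9.54, 9.30 and 9.33 at 3 d, against 7.74, 8.03 and 7.75 in P4 air. In the knockout they read 8.29, 8.22 and 8.22 at 1 d, 8.69, 8.58 and 8.93 at 2 d and 8.94, 8.76 and 8.77 at 3 d, against 8.21, 7.79 and 8.0 in P4 air. The wild-type arrays at 3 d therefore lay above all 3 knockout arrays. The effect was 1.55 ± 0.16 in wild type (2.93-fold, limma adjusted p 7.86e-09) and 0.82 ± 0.16 in the knockout (1.76-fold, 0.000189). The difference between these effects, -0.73 (95% interval -1.20 to -0.26), was not called (limma adjusted p 0.122). At 2 d the difference was of the opposite sign, 0.74 (0.27 to 1.21), and was not called either (limma adjusted p 0.0925). The knockout P3 air arrays behind it, at 7.32, 7.56 and 7.52, lay below the wild-type ones at 8.08, 7.96 and 7.68.

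Btg2, an antiproliferative cofactor of transcript decay, also reached its highest values in wild type at 3 d. The arrays were 9.25, 9.21 and 9.20 in air and 10.90, 10.25 and 10.60 in hyperoxia in wild type, and 9.38, 9.16 and 9.59 against 9.72, 10.37 and 10.18 in the knockout. The effects were 1.37 ± 0.14 (limma adjusted p 3.64e-09) and 0.71 ± 0.14 (0.000138), with no overlap of air and hyperoxia in either genotype. At 2 d the calls for Btg2 (0.53 and 0.44) were lost on leaving out any of 4 of 6 wild-type arrays or 5 of 6 knockout arrays.

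The polo-like kinases Plk2 and Plk3, both stress-responsive, were both called at 1 d in wild type. Plk2 rose at 1 d, from 10.58, 10.70 and 10.88 to 11.52, 11.41 and 11.10 in wild type and from 10.23, 10.62 and 10.17 to 11.14, 11.15 and 11.37 in the knockout. These effects were 0.63 ± 0.16 (limma adjusted p 0.0222, lost on leaving out any of 4 of 6 arrays) and 0.88 ± 0.16 (0.000679). At 3 d the effect was -0.02 in wild type and 0.02 in the knockout. Between P2 and P3 the wild-type air arrays went from the values above to 11.32, 11.27 and 11.27, which is the level of the 1 d hyperoxia arrays. Plk3 at P2 read 6.98, 7.34 and 7.34 in wild-type air and 7.92, 7.77 and 7.68 in hyperoxia, a rise of 0.57 ± 0.13 (limma adjusted p 0.0113, lost on leaving out any of 3 of 6 arrays). In the knockout its 1 d effect of 0.39 was not called (adjusted p 0.0614 by limma), nor were its 2 d effects of 0.25 in wild type and 0.37 in the knockout. Plk3 was thus called at 1 d and 3 d in wild type and at 3 d alone in the knockout, while the difference between the genotypes' 1 d effects was -0.17 (limma adjusted p 0.687). It read 7.88, 7.76 and 7.74 in wild-type P4 air and 9.32, 8.65 and 8.70 in hyperoxia, and 7.55, 7.47 and 7.69 against 8.18, 8.32 and 8.14 in the knockout. Its 3 d effects were 1.09 ± 0.13 (limma adjusted p 1.38e-07) and 0.65 ± 0.13 (0.000309).

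**Figure D2:**
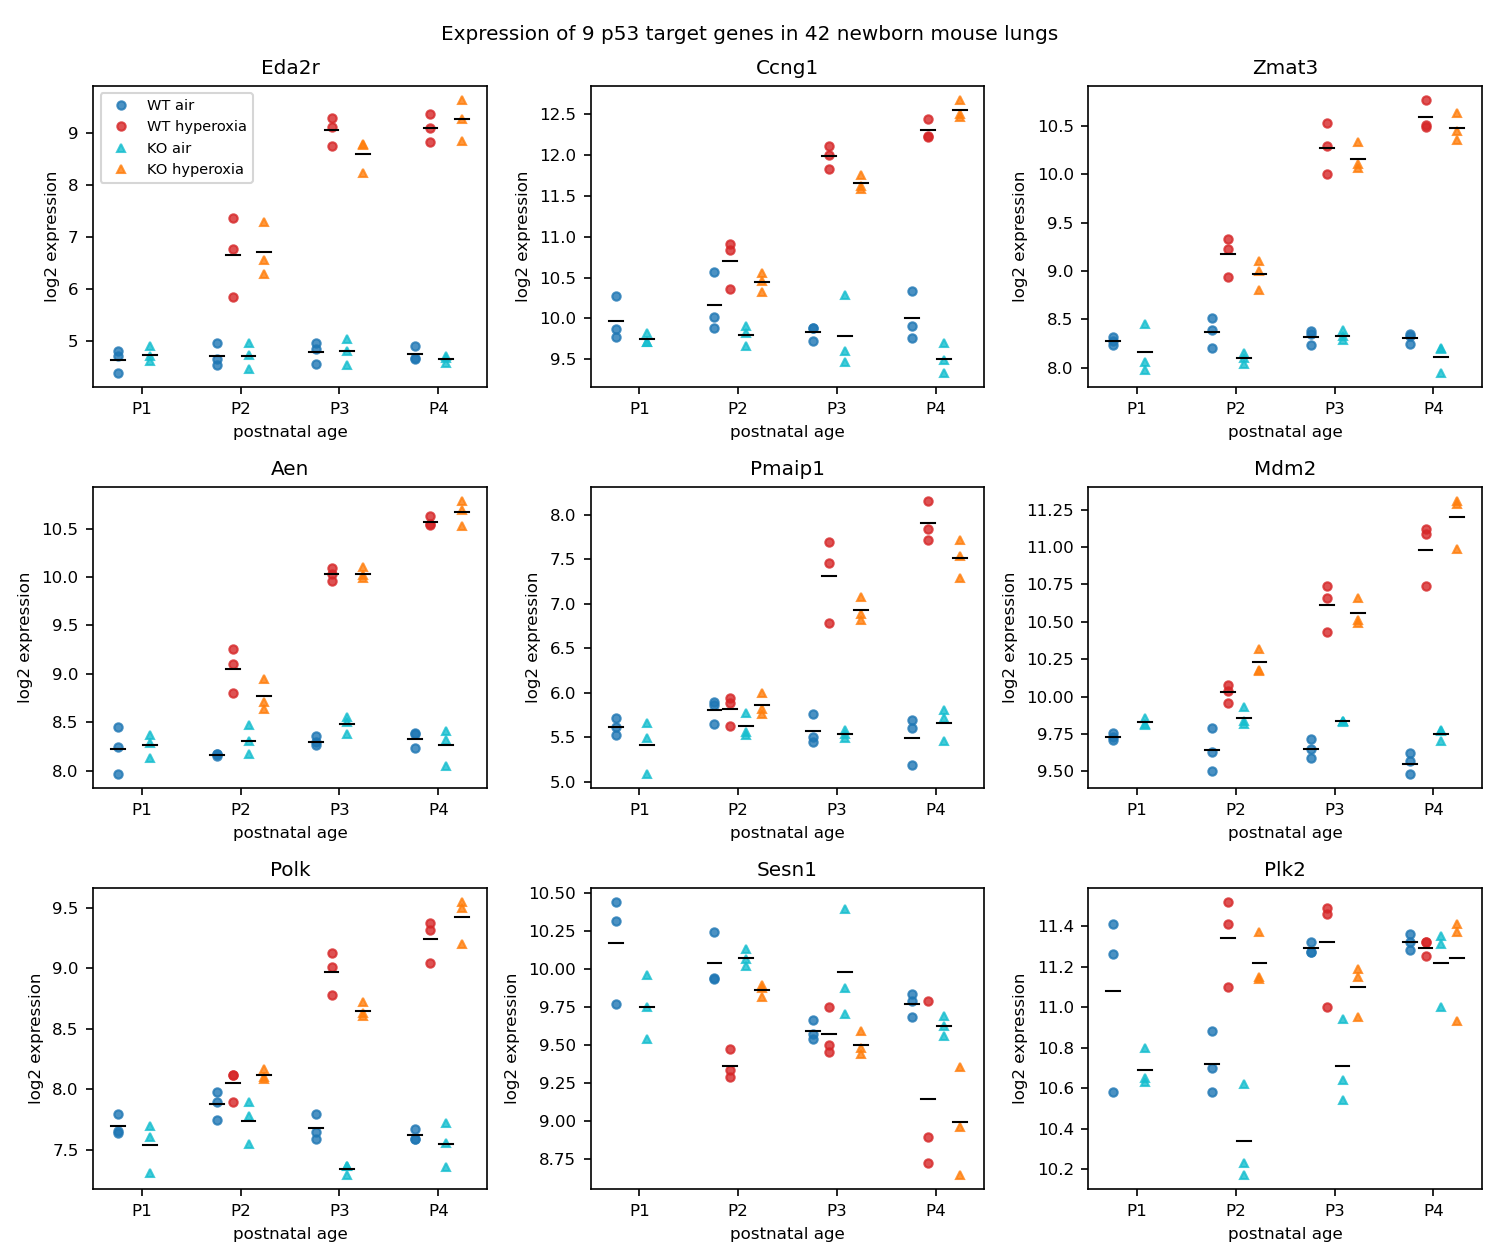
Log2 expression on every array (vertical axes) against postnatal age P1 to P4 (horizontal axes) for Eda2r, Ccng1, Zmat3, Aen, Pmaip1, Mdm2, Polk, Sesn1 and Plk2, with circles for wild type, triangles for knockout, colours for air and hyperoxia and black bars for group means. Eda2r lies at 4.37 to 5.03 in every air array and at 8.83 to 9.65 after 3 d of hyperoxia, while Plk2 differs at P2 and not at P4.

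The largest effect among the death genes, and among all 31 members at every time point in both genotypes, was that of Eda2r, a receptor of the tumour necrosis factor family that binds ectodysplasin A2. At P4 it read 4.64, 4.90 and 4.67 in wild-type air and 8.83, 9.38 and 9.10 in hyperoxia. In the knockout it read 4.71, 4.67 and 4.58 against 8.86, 9.28 and 9.65. The 3 d effects were 4.37 ± 0.26 and 4.61 ± 0.26, or 20.6-fold and 24.5-fold (limma adjusted p 4.39e-14 and 1.32e-14). All 24 air arrays lay between 4.37 and 5.03, close to the dimmest probe sets, so these folds may understate the change. At 1 d the hyperoxia arrays were already at 7.36, 6.77 and 5.84 in wild type and 7.29, 6.29 and 6.56 in the knockout, which is 3.86-fold and 4.00-fold.

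Pmaip1 encodes Noxa, a BH3-only protein that opposes survival factors of the Bcl-2 family, and was not above air at 1 d. Its 1 d hyperoxia arrays were 5.94, 5.88 and 5.63 in wild type and 6.0, 5.82 and 5.76 in the knockout, effects of 0.01 and 0.24. At 2 d they stood at 6.78, 7.69 and 7.46 and at 6.89, 6.82 and 7.08. At 3 d they reached 7.72, 8.16 and 7.84 against 5.6, 5.69 and 5.19 in wild-type air, and 7.54, 7.29 and 7.72 against 5.72, 5.46 and 5.81 in knockout air. The groups did not overlap at 2 d or 3 d, and the 3 d effects of 2.41 ± 0.17 and 1.85 ± 0.17 are 5.33-fold and 3.62-fold (limma adjusted p 1.1e-12 and 4.8e-10). Bbc3, which encodes the related protein Puma, rose from 1 d on. Its effects were 0.48, 0.56 and 0.93 at 1, 2 and 3 d in wild type and 0.37, 0.51 and 0.83 in the knockout, each ± 0.12, and all 6 were called, though the 1 d call was lost on leaving out any of 2 of 6 arrays in wild type and 5 of 6 in the knockout.

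Aen, a nuclease that promotes apoptosis, and Phlda3, a lipid-binding protein that inhibits the survival kinase Akt, rose at every time point. At P4, Aen read 8.23, 8.38 and 8.39 in wild-type air and 10.55, 10.54 and 10.63 in hyperoxia, and 8.41, 8.05 and 8.32 against 10.53, 10.79 and 10.69 in the knockout. Phlda3 read 9.16, 9.28 and 9.23 against 11.08, 11.29 and 11.37 in wild type, and 9.41, 9.06 and 9.33 against 11.22, 11.32 and 11.47 in the knockout. For both genes all hyperoxia arrays lay well above all air arrays. The effects of Aen were 0.89, 1.72 and 2.24 in wild type and 0.45, 1.56 and 2.41 in the knockout (SE 0.11; limma adjusted p at 3 d 1.78e-15 and 2.58e-16). Those of Phlda3 were 0.91, 1.65 and 2.02, and 0.59, 1.58 and 2.07 (SE 0.10; 1.78e-15 and 9.9e-16). The hyperoxia arrays of 2 d and 3 d do not overlap for Aen in either genotype (9.96, 10.03 and 10.09 at 2 d in wild type and 9.99, 10.02 and 10.10 in the knockout).

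Fas, the death receptor for Fas ligand, rose late. It read 7.47, 7.37 and 7.33 at 1 d in wild-type hyperoxia, 7.66, 7.96 and 7.92 at 2 d and 8.77, 8.59 and 8.77 at 3 d, against 7.18, 7.23 and 7.21 in P4 air. In the knockout it read 7.51, 7.56 and 7.56, then 7.91, 7.75 and 8.03, then 8.10, 8.74 and 8.79, against 7.11, 7.30 and 7.10. Fas was thus level with air at 1 d, with effects of -0.07 and -0.14, and stood 1.51 ± 0.13 and 1.37 ± 0.13 above air at 3 d (limma adjusted p 6.77e-11 and 5.82e-10). Tnfrsf10b, a receptor for the death ligand Trail, rose at 3 d by 0.77 and 0.75 (± 0.13). Its level was low, at 4.92 to 6.17 over all arrays.

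Perp, a membrane protein of desmosomes in epithelia, was the one member called higher at 3 d in a single genotype, the knockout. Its knockout arrays were 8.27, 8.31 and 8.68 in air and 10.35, 9.55 and 9.73 in hyperoxia, an effect of 1.45 ± 0.39 (limma adjusted p 0.00392). Its wild-type arrays were 8.51, 9.24 and 10.31 in air and 9.85, 9.65 and 9.28 in hyperoxia, which overlap, with an effect of 0.24 (adjusted p 0.714). The difference between the effects, 1.21 with a 95% interval of 0.10 to 2.33, was not called (limma adjusted p 0.291). The 3 highest wild-type air values of Perp, 11.27 at P2, 10.32 at P1 and 10.31 at P4, came from arrays with heart marker scores of 2.89, 3.67 and 2.44. Over 15 alternative fits, among them a fit with other-tissue scores as covariates, the wild-type 3 d effect ran from -0.18 to 0.83. It was called in 1 of the 15. Whether other tissue had a part in these values was not tested beyond these fits.

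The other death genes were Trp53inp1, Ei24 and Apaf1. Trp53inp1, a stress protein that promotes p53 phosphorylation and autophagy, was at 0.00 and -0.31 at 1 d and rose by 1.26 and 0.74 at 2 d and by 1.15 and 0.97 at 3 d. Over 15 alternative fits its knockout 1 d effect ran from -0.47 to 0.22 and was never called. Ei24, a membrane protein of the endoplasmic reticulum with a role in autophagy, rose by 0.60 and 0.61 at 2 d and by 0.53 and 0.79 at 3 d. Apaf1, the scaffold of the apoptosome, was called at 1 time point only, 2 d in the knockout, at 0.73 ± 0.09 (limma adjusted p 3.02e-06), where the air arrays were 8.32, 8.16 and 8.23 and the hyperoxia arrays 8.94, 8.81 and 9.13. These air arrays include the lowest Apaf1 values of the series.

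Of the repair genes, Polk and Ercc5 rose. Polk, a DNA polymerase that copies past damaged bases, read 7.59, 7.59 and 7.67 in wild-type P4 air and 9.04, 9.37 and 9.32 in hyperoxia. In the knockout it read 7.72, 7.36 and 7.56 against 9.20, 9.5 and 9.55. The groups did not overlap, and the 3 d effects were 1.63 ± 0.11 and 1.87 ± 0.11 (3.09-fold and 3.66-fold, limma adjusted p 5.69e-13 and 4.08e-14). At 1 d Polk was at 0.17 in wild type and 0.38 in the knockout, where the call was lost on leaving out any of 5 of 6 arrays, and at 2 d it was at 1.29 and 1.31. Ercc5, the nuclease that cuts 3′ of a lesion in nucleotide excision repair, rose by 0.68 and 0.56 (± 0.11) at 3 d. A dim second probe set, with a mean of 3.93, was not called.

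Other repair genes moved little or down. The lesion sensor Ddb2 fell at 1 d by 0.42 in wild type (limma adjusted p 0.0305) and by 0.39 in the knockout (0.0285), calls lost on leaving out any of 5 of 6 and 4 of 6 arrays. With the scores of other tissues as covariates its knockout effect at 1 d was 0.03. At 3 d Ddb2 fell in the knockout by 0.32 (limma adjusted p 0.0313), a call lost on leaving out either of 2 of 6 arrays. Xpc, which recognises distorted DNA, was called in none of the 6 comparisons, with effects between -0.20 and 0.08. Rev3l, the catalytic subunit of a polymerase for damaged templates, read 10.50, 10.54 and 10.37 in wild-type P4 air and 10.06, 10.35 and 10.31 in hyperoxia, and 10.44, 10.29 and 10.36 against 10.05, 9.98 and 9.99 in the knockout. It fell by 0.23 ± 0.09 and 0.36 ± 0.09 (limma adjusted p 0.0452 and 0.00177), and the wild-type call was lost on leaving out any of 3 of 6 arrays. Rrm2b, a p53-inducible subunit of ribonucleotide reductase, fell at 1 d in wild type by 0.31 ± 0.09 (limma adjusted p 0.0457), from 9.09, 8.98 and 9.09 to 8.84, 8.68 and 8.72, a call that was lost without any 1 of the 6 arrays. In the knockout at 1 d it was at 0.10, with 8.72, 8.87 and 8.47 in air and 8.77, 8.82 and 8.77 in hyperoxia.

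In the last role, Ddit4l rose and Sesn1 fell at 3 d, although both encode inhibitors of the growth kinase complex mTORC1. Ddit4l read 6.75, 7.21 and 7.52 in wild-type P4 air and 8.21, 8.87 and 8.70 in hyperoxia, and 7.11, 7.12 and 7.12 against 8.53, 8.70 and 9.19 in the knockout. Its 3 d effects were 1.43 ± 0.25 and 1.69 ± 0.25 (2.70-fold and 3.23-fold, limma adjusted p 4.24e-05 and 3.09e-06). In wild type the 2 d value was higher still, at 1.90, with hyperoxia arrays of 8.86, 8.87 and 9.0. Sesn1 read 9.68, 9.79 and 9.83 in wild-type P4 air and 9.79, 8.89 and 8.72 in hyperoxia, and 9.69, 9.56 and 9.62 against 9.35, 8.64 and 8.96 in the knockout. The effects of -0.63 ± 0.19 and -0.64 ± 0.19 were called (limma adjusted p 0.013 and 0.0109), but 1 wild-type hyperoxia array lay within the air range. Without the second or the third of the wild-type hyperoxia arrays the effect was -0.51 or -0.42 and no longer called, and without the second of the knockout it was -0.46 (adjusted p 0.105). At 1 d Sesn1 fell in wild type by 0.67 ± 0.19 (limma adjusted p 0.0394, lost on leaving out any of 4 of 6 arrays), and at 2 d its wild-type effect was -0.02. In the knockout the 1 d and 2 d effects of -0.21 and -0.48 were not called.

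Cd82, a tetraspanin of the cell surface, rose at 3 d by 0.37 ± 0.07 in wild type (10.16, 10.31 and 10.21 against 10.62, 10.61 and 10.55) and by 0.61 ± 0.07 in the knockout (10.12, 9.95 and 10.06 against 10.72, 10.75 and 10.51). The limma adjusted p values were 0.000145 and 4.32e-08, though a second probe set gave -0.06 and 0.16. Dgka, a lipid kinase abundant in T cells, fell in the knockout at 1 d by 0.96 ± 0.16 (limma adjusted p 0.000297), from 10.67, 9.27 and 10.02 to 8.97, 9.07 and 9.05. The same 3 air arrays had thymocyte marker scores of 3.79, 1.12 and 2.76, in the same order as Dgka, and 6 of 7 thymocyte markers fell in that comparison. With the scores of other tissues as covariates the Dgka effect was 0.02. Pltp, which transfers phospholipids between lipoproteins, was called in none of the 6 comparisons.

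The order of induction was then read from the first day at which a member was called higher and from tests between days. In wild type 8 members were first called at 1 d, 10 at 2 d and 2 at 3 d, and 11 were never called higher. In the knockout the numbers were 11, 7, 4 and 9. Mdm2, Zmat3, Bbc3, Eda2r, Aen and Phlda3 were called in all 6 comparisons. Of the 20 members called higher on some day in both genotypes, 13 had the same first day, 5 came earlier in the knockout and 2 later. At 1 d more of all genes were called higher in the knockout (5.73%) than in wild type (2.64%), and the 11 knockout calls at 1 d fell to 1 with the scores of other tissues as covariates and to 0 with the arrays of that comparison alone. Of the early knockout calls, that of Polk was lost in 9 and that of Ddit4l in 11 of 15 alternatives. A first day depends on where the threshold falls, so the change of the effect itself, hyperoxia minus air, was also tested from one day to the next.

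From 1 d to 2 d in wild type the effects of 11 members grew (0.665% of all genes), those of Eda2r by 2.33, Pmaip1 by 1.72, Ddit4l by 1.68, Ccng1 by 1.61, Trp53inp1 by 1.25, Zmat3 by 1.15 and Polk by 1.12, with Aen, Fas, Phlda3 and Mdm2 between 0.57 and 0.84. From 2 d to 3 d in wild type 6 grew (6.07%): Gadd45a by 1.03, Btg2 and Plk3 by 0.84, Fas by 0.78, Aen by 0.52 and Mdm2 by 0.47. Fas, Aen and Mdm2 grew over both steps. The wild-type count from 2 d to 3 d was 3 with the scores of other tissues as covariates and 0 once the arrays with high scores were dropped. In the knockout 12 grew from 1 d to 2 d (5.09% of all genes), among them Gadd45a by 1.06, and 10 from 2 d to 3 d (8.58%), among them Perp by 1.53, Ccng1 by 1.17 and Fas by 0.99. The knockout count from 1 d to 2 d was 3 with the covariates and 6 without the arrays with high scores. From 2 d to 3 d the effects of Apaf1 and Rev3l changed by -0.57 and -0.55 in the knockout (11.5% of all genes were called lower).

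Several wild-type members had nearly reached their 3 d effect by 2 d and others had not. The wild-type 2 d effect of Ccng1 was 93.8% of its 3 d effect, that of Mdm2 67% and that of Btg2 38.8%. Eda2r did not differ between 2 d and 3 d in wild type beyond the spread of its arrays, with 8.75, 9.13 and 9.30 at 2 d against 8.83, 9.38 and 9.10 at 3 d. These percentages describe group means and were not tested.

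The third question was whether the hyperoxia effect depended on Nrf2, which was tested as the difference between the knockout and wild-type effects. Of 93 such tests on members (31 at each of 3 times), 1 was called. Cd82 at 1 d differed by -0.48 ± 0.10 (95% interval -0.68 to -0.27, limma adjusted p 0.0126), when 2.69% of all genes were called. In wild type its P2 air arrays read 10.46, 10.50 and 10.49 and its hyperoxia arrays 10.57, 10.56 and 10.80. In knockout air the arrays read 10.87, 10.76 and 10.82, above every wild-type array of that age except the hyperoxia array at 10.80, and the hyperoxia arrays read 10.51, 10.56 and 10.44. The 3 knockout air arrays are those with the raised thymocyte scores, and the call was lost with the scores of other tissues as covariates (-0.50, adjusted p 0.226) and when only the arrays of the comparison were fitted (adjusted p 0.236).

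At 2 d and 3 d no member was called by limma (1.76% and 0.561% of all genes were). The smallest limma adjusted p values were 0.0515 (Apaf1, 0.49) and 0.102 (Btg2, -0.65). An unadjusted p under 0.05 was found for 5 and 9 of the 31 members, against 2643 and 2732 of all 18194 genes. Over the mean of the 3 times no member was called either (1.19% of all genes). There 6 members, and 2494 of all 18194 genes, had an unadjusted p under 0.05. The half-widths of the 95% intervals of that mean ran from 0.12 to 0.64 log2 with a median of 0.21. For Mdm2 the interval was -0.23 to 0.06, for Zmat3 -0.19 to 0.22, for Aen -0.33 to 0.04, for Phlda3 -0.28 to 0.05 and for Ccng1 -0.11 to 0.48. The value farthest from 0 was that of Btg2, at -0.38 (-0.61 to -0.15). A p above the threshold does not show that the genotypes respond alike, and these intervals give the differences that remain possible.

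**Figure D3:**
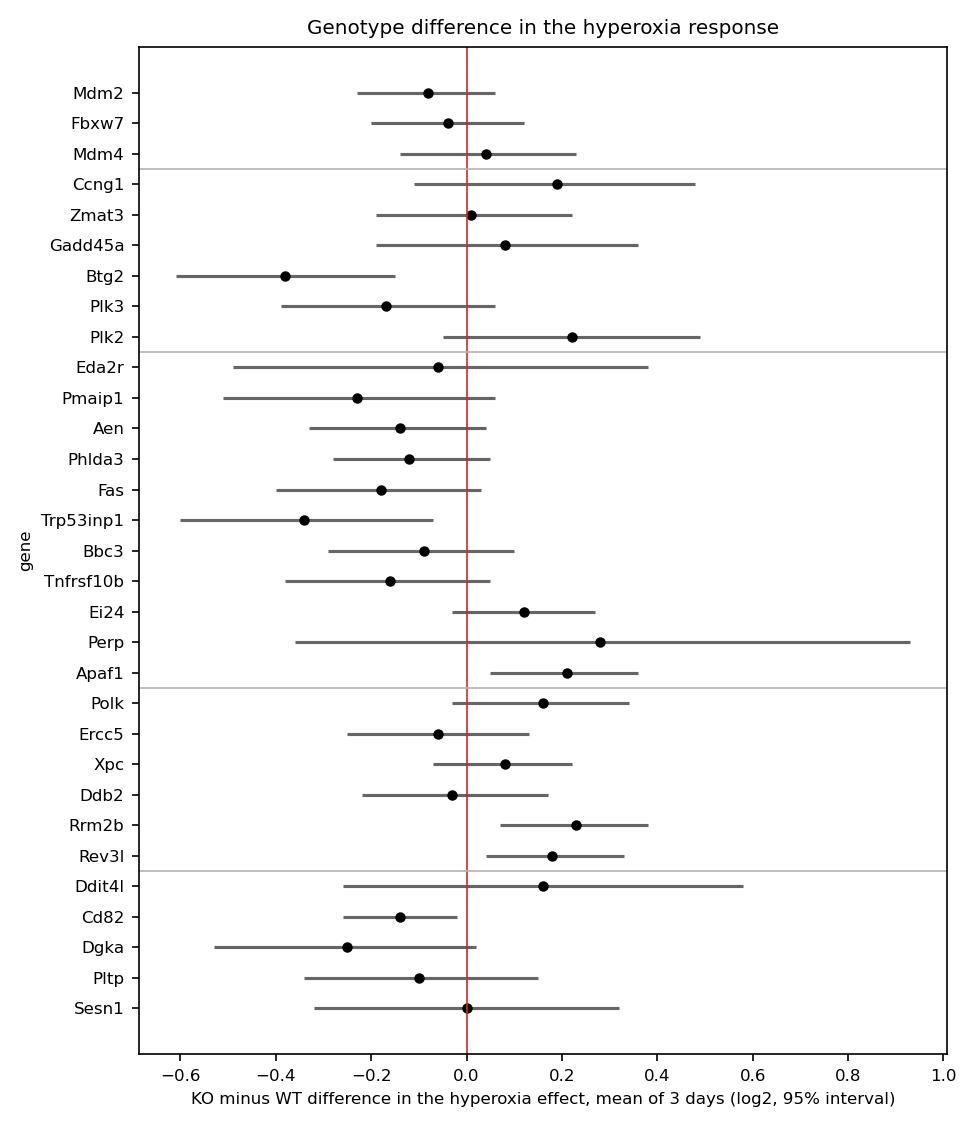
Difference between the knockout and wild-type hyperoxia effects, averaged over 1, 2 and 3 d (log2, horizontal axis), for the 31 measured members (vertical axis), with 95% intervals as bars. Points lie between -0.38 for Btg2 and 0.28 for Perp, and limma called none of them.

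Levels in air were then compared between the genotypes. Over the 4 ages, 12 arrays against 12, 3 members were higher in the knockout (14.5% of all genes were) and 6 were lower (14.4%), so that the share of members was near that of all genes. Mdm2 ran from 9.48 to 9.79 in wild-type air, with a median of 9.64, and from 9.70 to 9.93 in knockout air, with a median of 9.83, which overlap at the edges. The mean difference was 0.18 ± 0.04 (limma adjusted p 0.00312). Btg2 ran from 9.05 to 9.69 with a median of 9.28 in wild type, and from 9.16 to 10.16 with a median of 9.65 in the knockout, a difference of 0.34 ± 0.07 (0.000442). A second Btg2 probe set, with a mean of 8.77, gave -0.13 and was not called, and other Mdm2 probe sets gave 0.12 and 0.02 and were not called. The Btg2 difference was called at P1, at 0.45 (9.57, 9.69 and 9.58 against 10.16, 9.99 and 10.03), and at P2, at 0.56 (9.20, 9.31 and 9.44 against 9.97, 9.94 and 9.72). Dgka was higher in the knockout by 0.22 (adjusted p 0.0428), a call lost on leaving out any of 17 of 24 arrays and turned to -0.10 with the tissue scores as covariates.

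The 6 lower members were Plk2, Ccng1, Rrm2b, Rev3l, Apaf1 and Polk. Plk2 ran from 10.58 to 11.41 (median 11.27) in wild-type air and from 10.17 to 11.35 (median 10.65) in knockout air, a difference of -0.36 ± 0.08 (limma adjusted p 0.00123). Ccng1 ran from 9.72 to 10.57 (median 9.89) and from 9.33 to 10.29 (median 9.71), a difference of -0.28 ± 0.09 (0.0164), whereas its other probe sets, with means of 9.66 and 9.49, gave 0.06 and 0.00 and were not called. Rrm2b ran from 8.71 to 9.13 (median 8.94) and from 8.47 to 8.98 (median 8.67), a difference of -0.23 ± 0.05 (limma adjusted p 0.000308). All of these ranges overlap, so single animals cannot be told apart by them. For Rev3l, Apaf1 and Polk the differences were -0.20, -0.20 and -0.17 (limma adjusted p 0.000767, 0.00169 and 0.0188). Rev3l ran from 10.37 to 10.83 (median 10.63) in wild-type air and from 10.16 to 10.62 (median 10.43) in knockout air, Apaf1 from 8.58 to 8.86 (8.72) and from 8.16 to 8.79 (8.54), and Polk from 7.59 to 7.98 (7.66) and from 7.29 to 7.90 (7.55). A second Apaf1 probe set gave 0.13 and a second Polk probe set 0.14, opposite in sign, and neither was called. Of the 9 differences in air, that of Rev3l alone stayed called under every alternative. With the tissue scores as covariates 5 members were called in place of 9, and Mdm2 was then at 0.07 (limma adjusted p 0.474). With the mean of all probe sets 5 were called, and Btg2 was at 0.10 (limma adjusted p 0.387), Ccng1 at -0.07 (0.574), Apaf1 at -0.04 (0.52) and Polk at -0.02 (0.842). Over the same arrays 8 of 8 liver markers and 7 of 7 macrophage markers were lower in the knockout, with macrophage scores of -0.30 to 0.68 in wild-type air and -0.72 to -0.02 in knockout air, and 7 of 7 thymocyte markers were higher. Their part in these differences was not tested beyond the covariate fit, which left out macrophages.

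By age, the air difference was called for 2 members at P1 (6.78% of all genes), 5 at P2 (13.1%), 8 at P3 (21.6%) and 0 at P4 (0.726%). At each age the share of the 31 members was thus near that of all genes. At P4 limma found 4 members, and 2096 of all 18194 genes, at an unadjusted p under 0.05. The P2 calls were Btg2, Trp53inp1, Dgka and Cd82, higher in the knockout, and Rrm2b, lower. The P3 calls were Fas, Tnfrsf10b and Trp53inp1, higher, and Plk2, Apaf1, Polk, Rev3l and Rrm2b, lower. For Fas the P3 arrays were 7.08, 7.10 and 7.18 in wild type and 7.41, 7.43 and 7.71 in the knockout (0.40, limma adjusted p 0.0225), and for Tnfrsf10b 5.09, 4.95 and 5.10 against 5.89, 5.39 and 5.32 (0.48, 0.00676). Both death receptors were higher without overlap at P3, and neither was called at P1, P2 or P4. Tnfrsf10b was dim, at 4.92 to 5.89 over all air arrays. For Plk2 the P3 arrays were 11.32, 11.27 and 11.27 in wild type and 10.94, 10.54 and 10.64 in the knockout (-0.58, limma adjusted p 0.00967), and for Polk 7.80, 7.59 and 7.65 against 7.37, 7.29 and 7.37 (-0.33, 0.0285). For Apaf1 they were 8.86, 8.82 and 8.58 against 8.32, 8.16 and 8.23 (-0.52, limma adjusted p 0.000156), and for Rev3l 10.63, 10.63 and 10.58 against 10.16, 10.42 and 10.34 (-0.31, 0.0104). All 4 genes were thus lower in every knockout array than in any wild-type array. Rrm2b read 9.13, 8.98 and 8.88 against 8.64, 8.58 and 8.56 at P3 (-0.40, limma adjusted p 0.00171) and was lower by 0.37 at P2 (0.00617), where the arrays given above did not overlap either. Dgka at P2 read 9.24, 9.04 and 9.02 in wild-type air, all below the 3 knockout arrays given above (0.89, limma adjusted p 0.000475). Trp53inp1 changed direction: it was lower in the knockout at P1 (10.96, 10.81 and 10.92 against 11.40, 11.73 and 11.48) and higher at P2 (12.04, 11.34 and 11.62 against 10.88, 11.12 and 10.98) and P3 (10.81, 11.30 and 11.12 against 10.65, 10.60 and 10.58), with differences of -0.64, 0.68 and 0.47. The arrays of the genotypes did not overlap at any of these ages. At P2 the knockout values had the same order as the thymocyte scores of their arrays (3.79, 1.12 and 2.76). At P3 they had the order of the skeletal muscle scores (0.56, 6.28 and 2.80). Over 32 alternative fits the mean Trp53inp1 difference in air ran from -0.20 to 0.16 and was never called. Whether other tissue had a part at single ages was not tested. At P3 the knockout group stood apart in other ways too. Its skeletal muscle scores were 0.56, 6.28 and 2.80 against -0.02 to 0.20 in wild type, and its dividing-cell scores 0.13, -0.62 and -0.56 against 0.47 to 0.64. The second of these arrays held the highest knockout air values of Ccng1 (10.29), Ddit4l (7.99) and Sesn1 (10.39). Their part in the P3 calls was not tested.

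Within hyperoxia 1 member, Plk3, was called over the mean of the 3 times, 9 arrays against 9 (12.5% of all genes were called). It ran from 7.68 to 9.32 with a median of 7.92 in wild type and from 7.40 to 8.32 with a median of 7.82 in the knockout, a difference of -0.35 ± 0.08 (limma adjusted p 0.00241). At 1 d 2 members were called (2.96% of all genes), Mdm4 at 0.39 (8.09, 8.02 and 8.48 in wild type and 8.4, 8.75 and 8.61 in the knockout, which overlap) and Xpc at 0.31 (8.53, 8.37 and 8.46 against 8.77, 8.77 and 8.75, which do not). At 2 d none was (5.13%), with 4 members, and 3443 of all 18194 genes, at an unadjusted p under 0.05 by limma. At 3 d 3 of 31 members were called, a share near that of all genes (9.82%). All 3 were arrest genes and lower in the knockout: Plk3 by -0.67 ± 0.13 (limma adjusted p 0.00139), Gadd45a by -0.57 ± 0.16 (0.0231) and Btg2 by -0.50 ± 0.14 (0.0192). For Plk3 and Gadd45a all 3 wild-type arrays lay above all 3 knockout arrays, and for Btg2 the arrays 10.25 and 10.37 overlap. None of the 3 had a called difference in the hyperoxia effect.

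In air, few members rose with age. From P1 to P4 in wild-type air 9 members, and 5711 of all 18194 genes, had an unadjusted limma p under 0.05 in either direction. Limma called 0 members higher (11.2% of all genes were) and 6 lower (11.3%). These 6 fell: Trp53inp1 by 0.74, Cd82 by 0.62, Fas by 0.48, Ddb2 by 0.43 and Btg2 and Xpc by 0.39. In knockout air Plk2 rose by 0.53 (8.09% of all genes rose) and 5 fell (13.5%): Perp by 1.11, Cd82 by 0.78, Btg2 by 0.69, Bbc3 by 0.55 and Ddb2 by 0.35. Trp53inp1, Fas, Btg2 and Cd82 were thus lower at P4 than at P1 in wild-type air, and higher in hyperoxia than in air at P4. For Fas the wild-type air arrays went from 7.48, 7.78 and 7.80 at P1 to 7.18, 7.23 and 7.21 at P4.

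A second list of p53 targets and a list of its upstream regulators, neither of which holds a member, were read in the same fits. Of 23 measured targets of 24 listed, 7, 13 and 18 were higher at 1, 2 and 3 d in wild type (2.64%, 2.89% and 15% of all genes were) and 6, 10 and 19 in the knockout (5.73%, 8.87% and 17%). The largest at 3 d were the cell-cycle inhibitor Cdkn1a, at 3.19 and 3.18 (SE 0.16), the checkpoint protein Sfn at 3.17 and 1.74, the cytokine Lif at 3.11 and 3.04 and the thiamine transporter Slc19a2 at 2.59 and 2.48. Cdkn1a read 9.89, 9.89 and 9.82 in wild-type P4 air and 13.07, 13.02 and 13.07 in hyperoxia, and 9.73, 9.64 and 9.83 against 12.71, 13.01 and 13.04 in the knockout (limma adjusted p 1.78e-15 and 1.81e-15). Of the 14 upstream genes 1 was higher at 2 d in wild type (2.89% of all genes were) and 7 in the knockout (8.87%). At 3 d 2 were higher and 2 lower in wild type (15% and 12.5% of all genes), and 2 higher and 5 lower in the knockout (17% and 14.7%). Among them the checkpoint kinase Chek1 fell at 3 d by 0.85 and 0.95, Trp53bp2 fell by 0.43 and 0.44, and the ubiquitin ligase Rchy1 rose by 0.43 and 0.51.

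Markers of dividing cells were read beside the members. At 3 d 5 of 7 dividing-cell markers were lower in wild type, with a median effect of -0.95, and 7 of 7 in the knockout, with a median of -1.45. Their score was 0.82 to 0.87 in wild-type P4 air and -0.05 to -0.16 in hyperoxia, and 0.71 to 1.05 against -0.03 to -0.97 in the knockout. At 1 d and 2 d 0 of the 7 markers were called by limma in either genotype, and 0 had an unadjusted p under 0.05. Called higher at these times were 8 to 17 members, with the 1 d limits given above. At P2 the score ran from -0.72 to 0.03 in wild-type air and from -0.71 to 0.40 in hyperoxia. In the knockout it ran from -1.01 to 0.89 and from -0.43 to -0.03, so a fall at 1 d could be missed. At P3 the knockout score ran from -0.62 to 0.13 in air and from -0.04 to 0.15 in hyperoxia. That air group lay below wild-type P3 air (0.47 to 0.64), so a fall at 2 d in the knockout could be missed as well. Club cell markers were also lower at 3 d, 3 of 3 in each genotype. Of 7 macrophage markers, 4 were higher at 2 d in wild type and 3 in the knockout, and at 3 d 3 were higher and 1 lower in wild type and 4 higher in the knockout. Of 7 measured neutrophil markers 3 were higher at 3 d in each genotype. Of 8 type 1 alveolar cell markers 4 were higher and 1 lower at 3 d in wild type, and 2 higher and 2 lower in the knockout. Of 8 endothelial markers 4 were higher at 1 d in the knockout, while at 3 d 1 was higher and 4 were lower there, against 2 and 2 in wild type. Of all genes, 15% were called higher and 12.5% lower at 3 d in wild type, and 17% and 14.7% in the knockout. At 2 d 2.89% and 8.87% were higher, and at 1 d in the knockout 5.73%. The lists are short, and several of these marker counts are near those shares. The part of the marker changes in the members' values was not tested.

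**Figure D4:**
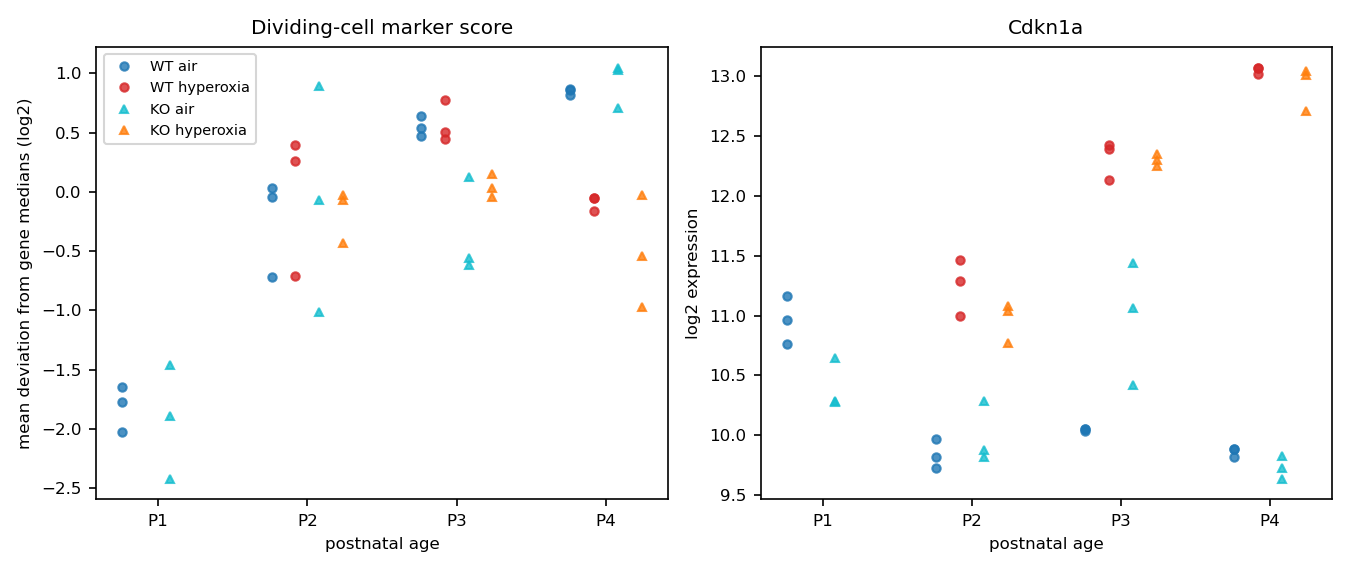
Dividing-cell marker score (mean deviation of 7 markers from their medians over the 42 arrays, log2) and Cdkn1a (log2 expression) on every array against postnatal age P1 to P4, for wild type and knockout in air and hyperoxia. In hyperoxia the score is below every air array of the same genotype at P4, and Cdkn1a rises from 10.77 to 11.46 at P2 up to 12.71 to 13.07 at P4.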

How the data were processed

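RNA of 42 whole lungs, 1 array each, was measured on Affymetrix arrays with 45101 probe sets. The deposited values are on a log2 scale and, per the submitters' processing notes, GCOS and RMA were used (versions not given in the sources used here); array medians were 6.31 to 6.40. The probe annotation gave 34958 probe sets a single symbol, 932 several symbols and the others none. For each of 18194 genes the probe set of highest mean was kept. limma 3.58.1 in R 4.3.3 fitted 14 group means to all 42 arrays, with equal weights, 28 residual degrees of freedom and 31.4 after variance moderation. Tests were two-sided, adjusted by Benjamini-Hochberg over all genes in each of 25 contrasts, and called at an adjusted p under 0.05. The number of arrays limits the precision.

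Members and lists were chosen with earlier results of these data known. Values on every array are given for Mdm2, the 12 members with the largest called 3 d effects and any member called in a genotype contrast or in the difference of hyperoxia effects (for contrasts over several ages, the lowest, median and highest); others are given by range or effect. Of the further p53 genes, Cdkn1a and up to 4 per list with the largest called 3 d change are named. A marker score is the mean deviation of a list's genes from their medians over the 42 arrays. No 2 arrays held identical values.

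The fit was tested on simulated data with 200 changed genes among 18194. The simulated noise was independent between genes and arrays. It held no RNA of other tissues and no arrays of unlike quality. The shares recovered therefore apply to that setting and do not show how stable the counts are in these arrays, of which 17 had high scores of other tissues. For the 3 d effect in wild type it recovered 56.7% of changes of 0.5 log2, 97% of changes of 1 and 100% of changes of 2, with 13 false calls. For the knockout at 1 d the shares were 73.1%, 94% and 100%, with 7 false calls, and for the mean genotype difference in effect 79.1%, 97% and 100%, with 6. Alternatives covered normalisation, array weights, the variance model, a filter keeping the upper 60% of genes (10916), the probe set rule, the arrays fitted, a replicate block, other tissues (score limit 2 log2 units) and leaving out each array. Data were handled with the R package data.table (version 1.17.8) and pandas 2.3.3, promoter windows were searched with Python 3.11.15, and figures were drawn with matplotlib 3.10.9.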

Additional observations from a re-analysis of the deposited data

Results flagged for a closer look

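Of the members, Cd82 at 1 d had a hyperoxia effect that differed between the genotypes, by -0.48 ± 0.10 log2 (knockout minus wild type, limma adjusted p 0.0126). Among the further targets of p53, Ddit4, an inhibitor of mTORC1, differed at 1 d by -0.99 ± 0.27 (limma adjusted p 0.0372). Its P2 air arrays read 9.70, 9.27 and 9.52 in wild type and 10.21, 10.10 and 10.43 in the knockout, and its hyperoxia arrays 9.72, 9.62 and 9.77 and 9.52, 9.4 and 9.48. Knockout arrays were all above wild-type arrays in air and all below them in hyperoxia.

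Cdkn1a differed at 2 d by -0.94 ± 0.23 (limma adjusted p 0.0259). Its hyperoxia arrays at 2 d overlapped, with 12.13, 12.39 and 12.42 in wild type and 12.30, 12.25 and 12.35 in the knockout, whereas its P3 air arrays were 10.04, 10.05 and 10.05 in wild type and 10.42, 11.44 and 11.06 in the knockout. With other-tissue scores as covariates the difference was -0.71 (adjusted p 0.134), and without the arrays high in other tissues it was -0.48 (adjusted p 0.344).

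Of the genes upstream of p53, the damage kinases Atm (0.61 ± 0.12, limma adjusted p 0.00792) and Prkdc (0.82 ± 0.16, 0.0047) and the damage mediator Trp53bp1 (0.57 ± 0.12, 0.00847) differed at 2 d, in the opposite direction to Cdkn1a. All of the 2 d differences use the knockout air group at P3, in which skeletal muscle scores reached 6.28 and dividing-cell scores ran from -0.62 to 0.13. The part of these was not tested for the upstream genes.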

How the results depend on the processing

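At 3 d, 19 of 21 wild-type and 21 of 24 knockout calls on members stood under every alternative, and at 2 d 13 of 16 and 14 of 17; at 1 d none of 11 and none of 14 did, and of the 9 genotype differences in air 1 did (Rev3l). For single genes, 2867 of 3039 values under other settings and 3508 of 3648 with an array left out kept their call or lack of one. A change of sign was counted as a reversal only where a fit called the gene. By that rule 3 reversed, all with other-tissue scores as covariates (Ddb2 0.03 and Dgka 0.02 in the knockout at 1 d, Dgka -0.10 for the genotypes in air). Sign changes of values called in neither fit were counted as kept, such as Gadd45a in wild type at 1 d (-0.04, up to 0.19). In the following the causes were not tested.

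Members with a genotype difference in the 1 d effect (1) numbered 2 with cyclic loess, 4 with array weights, 2 with the mean of probe sets, 0 with only the arrays of the comparison and 0 with covariates. At 2 d (0) they numbered 1 with loess, 7 with weights and 1 in the upper 60% of genes, and at 3 d (0) 2 with weights. Genotype differences over hyperoxia days (1) numbered 6 with weights, 2 with the mean of probe sets, 4 with covariates and 5 without the arrays high in other tissues, and those over air ages (9) 5 with the mean of probe sets and 5 with covariates. Changes from P1 to P4 in wild type (6) numbered 14 with weights. Changes from 2 d to 3 d in wild type (6) numbered 10 with weights, 3 with covariates and 0 without high arrays, and those from 1 d to 2 d in the knockout (12) 3 with covariates and 6 without high arrays. Members higher at 1 d numbered 0 in wild type (8) with only its arrays, and in the knockout (11) 7 with the mean of probe sets, 0 with only its arrays, 1 with covariates and 4 without high arrays.

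With each array left out in turn, members higher at 1 d ran from 4 to 10 in wild type and from 6 to 11 in the knockout. Genotype differences in the effect ran from 1 to 4 at 1 d (2 without the third wild-type hyperoxia array, 4 without the second knockout air array), 0 to 1 at 2 d (Apaf1, without the third wild-type air, first knockout air or second knockout hyperoxia array) and 0 to 1 at 3 d (Btg2, without the second wild-type hyperoxia array). Genotype differences over hyperoxia days ran from 1 to 2 (2 without the third array of 1 d or first of 2 d in wild type, or the first of 1 d or of 3 d in the knockout).

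The replicate block left 16 of 17 counts as they were, and the members higher in the knockout at 1 d went from 11 to 10. Replicate numbers did not pair the samples: over 18 pairs of same-numbered arrays, deviations correlated at -0.19 to 0.43, with 5 over 0.1, and 7 of 18 correlated best with their own number.

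Cyclic loess moved no median of all genes by 0.1, but the share of higher among all called genes went from 60.9% to 44.4% (wild type, 1 d), 63.3% to 48.9% (knockout, 1 d), 75.9% to 54.4% (genotype difference at 2 d), 50.5% to 36.7% (genotypes in hyperoxia) and 34.4% to 57.6% (wild type, 1 d to 2 d). The filter removed Pmaip1, Tnfrsf10b and Eda2r, which are dim in air. Signal near background limits Eda2r and Tnfrsf10b.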
